A study of Mus musculus with 44 samples.

Results

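The matrix metalloproteases and their inhibitors were followed in macrophages (MFs) sorted from injured mouse muscle, through 9 genes: Mmp8, Mmp9, Mmp12, Mmp13, Mmp14, Mmp19, Timp1, Timp2 and Adam8. A gene was taken where the array annotation gave a probe set to that symbol alone, and each of the 9 had 1 such probe set, out of 19938 genes read this way. RNA was measured on 44 one-colour arrays in 10 groups, from tibialis anterior muscle injected with cardiotoxin, a venom protein that destroys the fibres. CD45+ leukocytes were sorted into MFs labelled Ly6C+ F4/80low, the inflammatory monocyte-like cells, and Ly6C- F4/80high, the more mature cells. Wild-type (WT) animals were C57B6/J and gave 4 Ly6C+ arrays on day 1, 6 on day 2 and 4 on day 4, with 6 Ly6C- arrays on day 2. Knockout (KO) animals were C57B6/J with both copies of PPARg floxed and with LysM Cre, and gave 4, 5 and 4 Ly6C+ arrays on those days, with 5 Ly6C- arrays at day 2. Rosiglitazone, a drug that activates PPARγ, was given to WT animals whose Ly6C+ (n = 3) and Ly6C- (n = 3) MFs were taken at day 2, with dose and route not given in the sources used here. LysM Cre is driven by the Lyz2 gene of myeloid cells, so that deletion is aimed at those cells and the KO differs from WT in the Cre and floxed alleles as well. The labels call the arrays biological replicates and the submitters' design text names 3 animals without tying arrays to them, so p-values measure the spread between arrays.

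Matrix metalloproteases (MMPs) are zinc enzymes that cut collagen, elastin and other matrix proteins, and most are secreted as inactive precursors. Tissue inhibitors of metalloproteases (TIMPs) bind the active enzymes and block them, and TIMP2 also takes part in activating pro-MMP2 at the cell surface together with MMP14. In injured muscle, infiltrating MFs are a source of these enzymes while debris is cleared and the matrix around the fibres is rebuilt. Mmp8 and Mmp13 encode collagenases, Mmp9 encodes a gelatinase, Mmp12 encodes MF elastase, Mmp14 encodes a membrane-bound protease, and Mmp19 encodes a secreted protease cloned outside the classical groups. Adam8 encodes a membrane-anchored protease of leukocytes.

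The labels were checked before the results. MF markers averaged between 11.20 and 11.87 (log2 signal, 9 genes) on all 44 arrays. Lyz2 is 1 of these 9 and read lower on the KO arrays and on 6 WT arrays, as given below, which lowers their mean. Neutrophil markers averaged from 6.12 to 7.52 (15 genes), where the median of all gene values was 6.86, and 8 of the 15 (Ly6g, Ngp, Ltf, Camp, Elane, Mpo, Retnlg and Cxcr2) lay below that median on every array. The other 7 did not. Csf3r read 9.59 to 10.69 and Cd177 6.98 to 10.29, and Lcn2, Il1r2, S100a8, S100a9 and Prtn3 reached 11.31, 9.86, 8.25, 7.48 and 7.50. In such bulk samples fewer cells of a type and less RNA per cell cannot be told apart. Monocyte markers averaged 10.97 in WT Ly6C+ MFs at day 1 and 8.17 in Ly6C- MFs at day 2, but 8.37 at day 4. The 4 WT day 4 arrays labelled Ly6C+ read 9.58 to 10.09 on one Ly6c probe set, which Ly6c1 and Ly6c2 share, against 11.74 to 12.15 in day 2 Ly6C+ MFs and 8.61 to 8.94 in day 2 Ly6C- MFs. Day 4 was therefore set against both day 2 subsets. Lyz2, the host of the Cre insertion, read between 12.64 and 13.19 on every rosiglitazone, WT day 1, WT day 4 and WT day 2 array except replicates 1 to 3 of the WT day 2 subsets. Those 6 arrays read 8.67 to 9.29, against 9.07 to 9.96 on the KO arrays. Results that rest on WT day 2 are given with each set of 3 replicates where they differ. Pparg read 9.31, 10.39, 10.38 and 10.18 in KO and 9.21, 10.31, 10.38 and 9.94 in WT (means of day 1, day 2 Ly6C+, day 2 Ly6C- and day 4). It was thus no lower in KO and missed the threshold in all 4 contrasts, and which exons its probe set reads is not given in the sources used here.

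Promoter sequences are given for Mmp12 and Mmp13, which moved together in these data, and for Timp1 and Timp2, which moved in opposite directions. Timp2 also moved with Mmp12 and Mmp13 (Pearson's r 0.92 and 0.78 over the 10 group means). The RefSeq table, on build GRCm38.p6, gave a 300-base window around the start of 7 of the 9 genes. Mmp12 had windows for 2 starts. Mmp9 and Mmp19 were not searched here. Each sequence is the 250 bases before the start, 5′ to 3′ in the direction of transcription, and capitals mark TGANTCA, the AP-1 letters, where N is any base. The places are chr9:7272264-7272513, plus strand for Mmp13, chr9:7344147-7344396, plus strand and chr9:7347124-7347373, plus strand for Mmp12, chrX:20869916-20870165, plus strand for Timp1, and chr11:118355412-118355661, minus strand for Timp2.
Mmp13: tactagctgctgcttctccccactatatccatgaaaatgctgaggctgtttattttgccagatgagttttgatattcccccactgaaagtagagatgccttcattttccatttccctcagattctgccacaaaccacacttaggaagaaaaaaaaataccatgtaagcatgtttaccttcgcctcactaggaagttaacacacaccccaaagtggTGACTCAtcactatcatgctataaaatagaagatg
Mmp12, upstream start: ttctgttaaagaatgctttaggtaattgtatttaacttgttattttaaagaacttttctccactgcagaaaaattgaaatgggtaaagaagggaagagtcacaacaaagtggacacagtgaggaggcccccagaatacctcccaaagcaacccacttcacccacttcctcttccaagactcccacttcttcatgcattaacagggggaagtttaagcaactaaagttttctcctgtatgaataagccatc
Mmp12, downstream start: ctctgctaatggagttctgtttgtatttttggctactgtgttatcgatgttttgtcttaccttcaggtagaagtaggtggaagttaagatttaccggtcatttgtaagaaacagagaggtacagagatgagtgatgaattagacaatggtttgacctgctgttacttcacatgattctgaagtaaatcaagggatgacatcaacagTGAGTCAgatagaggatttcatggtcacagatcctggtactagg
Timp1: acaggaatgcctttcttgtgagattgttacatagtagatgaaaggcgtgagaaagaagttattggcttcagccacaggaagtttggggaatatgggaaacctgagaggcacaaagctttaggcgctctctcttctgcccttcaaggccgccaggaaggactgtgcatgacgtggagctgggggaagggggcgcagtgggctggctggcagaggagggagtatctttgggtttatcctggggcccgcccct
Timp2: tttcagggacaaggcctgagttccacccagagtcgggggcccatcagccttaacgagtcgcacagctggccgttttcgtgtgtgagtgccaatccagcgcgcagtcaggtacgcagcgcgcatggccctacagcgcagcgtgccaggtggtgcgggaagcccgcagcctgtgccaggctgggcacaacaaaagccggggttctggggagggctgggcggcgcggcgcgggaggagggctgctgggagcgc
The AP-1 letters stood from -35 to -29 before the start of Mmp13 and from -44 to -38 before the downstream start of Mmp12. Of the 7 genes with a window, these 2 held the letters, which read alike on both strands. Of all 32851 promoter windows, 7.8% held them. The other letters searched on both strands were GAGGAA of PU.1 (in the windows of Mmp8 and Mmp12, and in 28.3% of all windows), AGGTCA, the repeat that PPARs and other nuclear receptors bind (Mmp12 alone among these genes, 16.3%), TTGCNNAA of C/EBP (Mmp8, Mmp12 and Adam8, 10.8%) and TATAAA (Mmp8, Mmp12 and Mmp13, 13.6%). No match overlapped another. A match describes letters in a window and is not a measured site. On chromosome 9, RefSeq places Mmp13 beside Mmp12, and Mmp8 beside Mmp27, within one run of MMP genes.

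**Figure D1:**
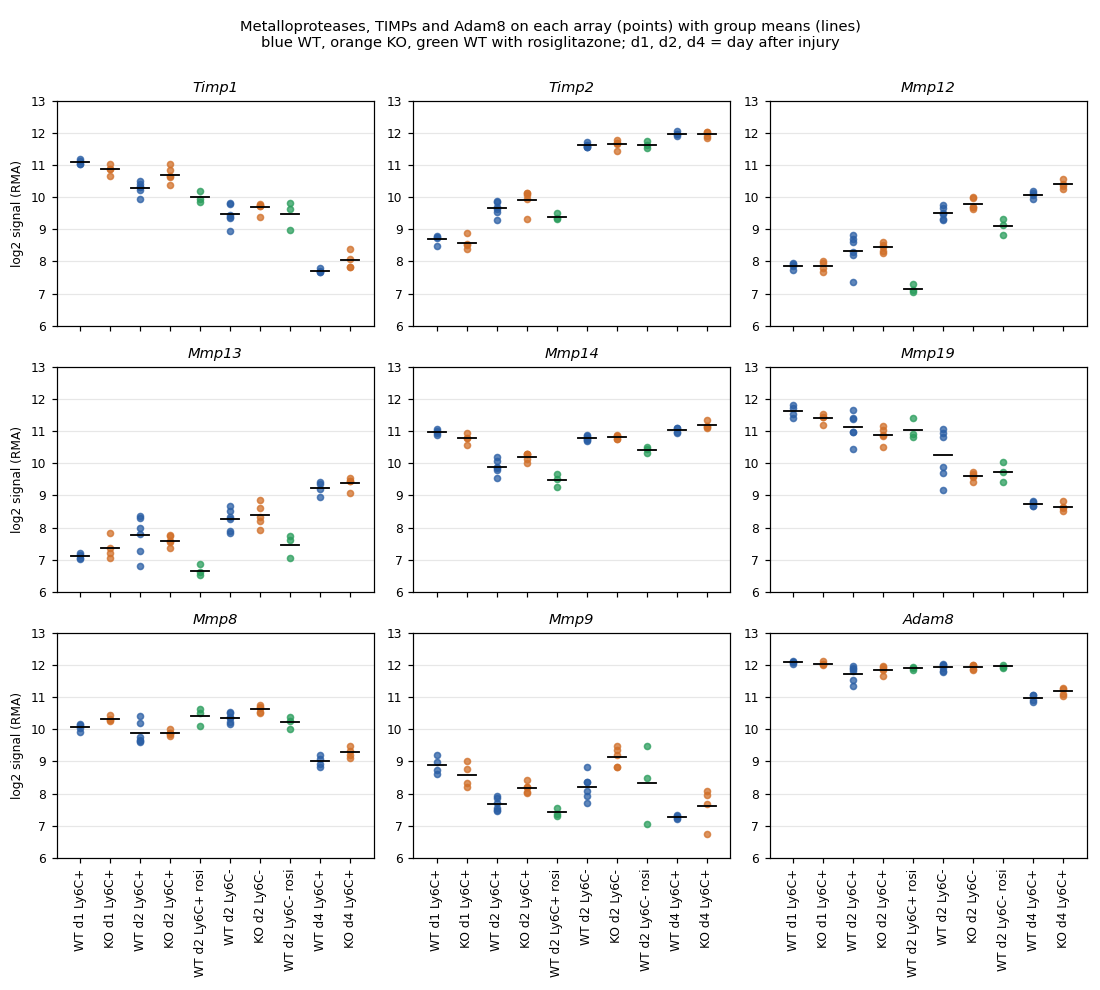
Each panel plots 1 gene, with every array as a point and each group mean as a black line. The vertical axis is log2 signal on the same scale in every panel, but levels of different probe sets are not comparable. Timp1 and Mmp19 stood lowest at day 4, and Timp2, Mmp12, Mmp13 and Mmp14 highest.

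Timp2 had the widest spread of group means among the 9 genes, 3.40 on the log2 scale, and 99.6% of all genes had a narrower one. WT day 1 Ly6C+ arrays read 8.77, 8.48, 8.80 and 8.72. At day 2, WT Ly6C+ arrays read 9.30, 9.67 and 9.87 (lowest, median and highest of 6), and Ly6C- arrays read 11.56, 11.59 and 11.73. At day 4, WT arrays read 11.97, 12.06, 11.90 and 11.96. None of these 4 groups overlapped another, and the order ran from day 1 through day 2 Ly6C+ and day 2 Ly6C- to day 4. In KO MFs the means were 8.58 ± 0.21 at day 1 (SD, n = 4), 9.92 ± 0.33 in day 2 Ly6C+ (SD, n = 5), 11.65 ± 0.13 in day 2 Ly6C- (SD, n = 5) and 11.95 ± 0.08 at day 4 (SD, n = 4). Rosiglitazone arrays read 9.33, 9.35 and 9.50 in Ly6C+ MFs and 11.75, 11.61 and 11.53 in Ly6C- MFs. The KO groups and the WT groups overlapped at day 1, in both day 2 subsets and at day 4.

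Timp1, the TIMP that is induced in inflammation, moved the other way, with a spread of 3.38 over the group means and 99.6% of genes narrower. WT day 1 arrays read 11.04, 11.04, 11.12 and 11.18. WT day 2 Ly6C+ arrays read 9.94, 10.31 and 10.50 (lowest, median and highest of 6), and Ly6C- arrays read 8.95, 9.42 and 9.83. At day 4 the WT arrays read 7.71, 7.81, 7.66 and 7.67. These 4 groups did not overlap either. KO arrays at day 4 read 8.38, 8.09, 7.84 and 7.84, and all 4 lay above the WT arrays. Rosiglitazone arrays read 9.86, 9.95 and 10.19 in Ly6C+ MFs and 8.98, 9.64 and 9.83 in Ly6C- MFs. Over the 10 group means, which share arrays with every other comparison made here, Pearson's r between Timp1 and Timp2 was -0.85.

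**Figure D2:**
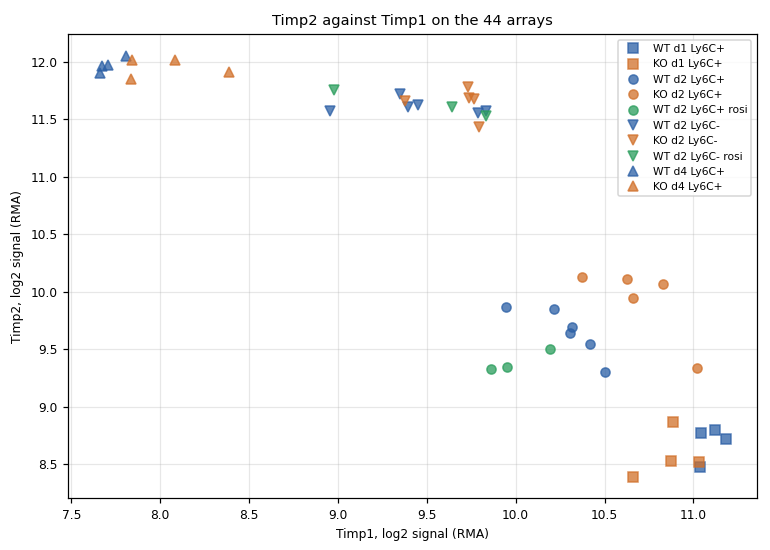
Each point is 1 of the 44 arrays, with Timp1 on the horizontal and Timp2 on the vertical axis, both as log2 signal. Squares are day 1, circles day 2 Ly6C+, downward triangles day 2 Ly6C- and upward triangles day 4, in blue for WT, orange for KO and green for rosiglitazone. Day 4 arrays sit at the upper left, from 7.66 to 8.38 for Timp1, and day 1 arrays at the lower right.

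Mmp12 and Mmp13 rose along the same order as Timp2. Mmp12, the elastase of MFs, read 7.86, 7.94, 7.92 and 7.73 on the WT day 1 arrays. It read 7.36, 8.44 and 8.81 (lowest, median and highest of 6) in WT day 2 Ly6C+ MFs and 9.30, 9.49 and 9.75 in Ly6C- MFs. WT day 4 arrays read 10.06, 9.93, 10.12 and 10.19, above every day 2 array of WT. The lowest group was rosiglitazone Ly6C+, with arrays at 7.05, 7.10 and 7.30, below the other 41 arrays. KO day 4 arrays read 10.26, 10.35, 10.41 and 10.57 and lay above the WT ones.

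Mmp13, the main collagenase of rodents, read 7.03, 7.15, 7.20 and 7.06 at day 1 in WT. WT day 2 arrays read 6.82, 7.90 and 8.35 (lowest, median and highest of 6) in Ly6C+ MFs and 7.83, 8.31 and 8.66 in Ly6C- MFs, so the subsets overlapped. WT day 4 arrays read 8.94, 9.19, 9.36 and 9.42, above every WT array of the earlier days. Rosiglitazone arrays read 6.52, 6.85 and 6.62 in Ly6C+ MFs and 7.06, 7.73 and 7.60 in Ly6C- MFs. Pearson's r between Mmp12 and Mmp13 was 0.94 over the 10 group means. With Timp2 it was 0.92 for Mmp12 and 0.78 for Mmp13.

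Mmp14, which cuts collagen at the cell surface and activates pro-MMP2, was lowest in day 2 Ly6C+ MFs. WT arrays read 10.88, 11.06, 11.02 and 10.93 at day 1. They read 9.53, 9.88 and 10.20 (lowest, median and highest of 6) in day 2 Ly6C+ MFs, below every day 1 array. Day 2 Ly6C- arrays read 10.70, 10.76 and 10.87, and day 4 arrays read 10.93, 11.11, 10.97 and 11.10, which overlapped day 1. KO arrays followed, at 10.77 ± 0.15 at day 1 (SD, n = 4), 10.20 ± 0.12 in day 2 Ly6C+ (SD, n = 5), 10.81 ± 0.06 in day 2 Ly6C- (SD, n = 5) and 11.18 ± 0.11 at day 4 (SD, n = 4). Rosiglitazone Ly6C+ arrays read 9.27, 9.51 and 9.65, the group with the lowest mean.

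Mmp19 ran opposite to Timp2 across the groups. WT arrays read 11.41, 11.53, 11.82 and 11.70 at day 1 and 8.67, 8.78, 8.84 and 8.67 at day 4, with no overlap. In WT day 2 Ly6C- MFs the replicates were divided. Replicates 1 to 3 read 10.82, 11.06 and 10.93, and replicates 4 to 6 read 9.18, 9.69 and 9.90. KO Ly6C- arrays read 9.42, 9.61, 9.56, 9.66 and 9.74, inside the range of replicates 4 to 6 and below replicates 1 to 3. In WT day 2 Ly6C+ MFs the same division gave 11.39, 11.39 and 11.66 against 10.97, 10.43 and 10.96. The replicates that read high for Mmp19 were those that read low for Lyz2.

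**Figure D3:**
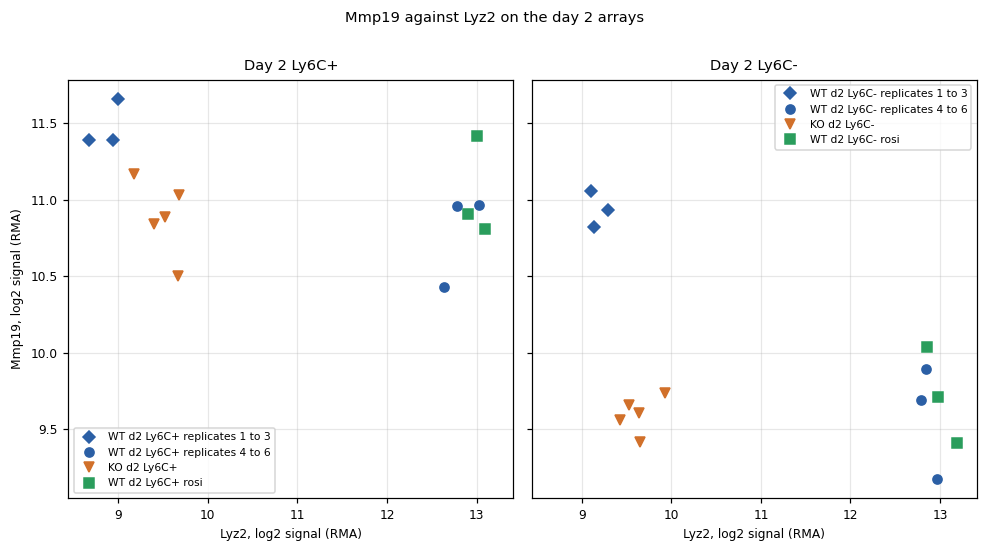
Each point is 1 day 2 array, with Lyz2 on the horizontal and Mmp19 on the vertical axis, both as log2 signal, for Ly6C+ MFs at the left and Ly6C- MFs at the right. WT replicates 1 to 3 are diamonds and stand at Lyz2 values of 8.67 to 9.29 and above the KO arrays for Mmp19 in both panels.

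Mmp8 and Mmp9 are also known from neutrophil granules, and Adam8 from leukocyte membranes. Mmp8 was lowest at day 4, with WT arrays at 8.82, 8.92, 9.21 and 9.09 and KO arrays at 9.49, 9.32, 9.21 and 9.10. Its means on days 1 and 2 lay between 9.88 and 10.63. Mmp9 was highest in KO day 2 Ly6C- MFs, with arrays at 8.83, 8.83, 9.36, 9.19 and 9.48, above the WT ones at 7.72, 8.22 and 8.82 (lowest, median and highest of 6). Its rosiglitazone Ly6C- arrays were far apart, at 7.06, 8.48 and 9.48. Adam8 was lowest at day 4, with WT arrays at 10.91, 10.84, 11.07 and 11.08 against 11.33 to 12.13 on all WT arrays of days 1 and 2. The spread of group means was 1.62 for Mmp8, 1.87 for Mmp9 and 1.11 for Adam8, wider than in 95.1%, 96.6% and 87.4% of genes.

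The subsets were first compared at day 2. In WT MFs, 8 of the 9 genes passed at an adjusted p below 0.05 (limma's moderated test over 19938 genes, Benjamini-Hochberg), where 45.2% of all genes passed. With dim genes left out (those whose highest group mean lay below the median of all values), 6929 of 11799 genes passed. Timp2 was 1.96 higher on the log2 scale in Ly6C- MFs, or 3.89-fold (SE 0.10, adjusted p = 7.3e-20, 6 of 6 arrays above every Ly6C+ array). Mmp12 was 1.18 higher (SE 0.14, adjusted p = 2.5e-09, 6 of 6) and Mmp14 was 0.88 higher (SE 0.08, adjusted p = 3.1e-12, 6 of 6). Smaller rises were those of Mmp8 (0.48), Mmp13 (0.50) and Adam8 (0.20), with adjusted p of 0.00024, 0.023 and 0.027. Mmp13 no longer passed with replicates 1 to 3 alone (0.22, adjusted p = 0.37) or without any of 4 of the 12 arrays, with its lowest value of 0.31 without Ly6C+ replicate 4 (adjusted p = 0.11). Adam8 passed with neither set (adjusted p = 0.11 and 0.1) and was 0.12 without Ly6C+ replicate 5 (adjusted p = 0.13). Mmp8 gave 0.30 with replicates 4 to 6 alone (adjusted p = 0.11). Timp1 fell by 0.82 (SE 0.13, adjusted p = 1.2e-06, 6 of 6 below) and Mmp19 fell by 0.87 (SE 0.20, adjusted p = 0.00066, 3 of 6 below). The share of all genes with such separation between these subsets was not counted. Mmp9 missed the threshold at 0.54 (interval 0.08 to 1.00, adjusted p = 0.05). It passed with array medians centred (adjusted p = 0.039), dim genes left out (0.043), the compared arrays alone (0.017) or the replicate block (0.0044). It also passed without Ly6C+ replicate 3, Ly6C- replicate 2 or Ly6C- replicate 3. With neither set of 3 replicates alone did Mmp9 pass. Its means were 7.66 in Ly6C+ and 7.91 in Ly6C- MFs for replicates 1 to 3, and 7.68 and 8.51 for replicates 4 to 6.

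In KO MFs, 8 of the 9 passed between the same subsets, where 38.4% of all genes did. Timp2 was 1.73 higher (SE 0.11, adjusted p = 1.4e-16), Mmp12 1.36 (SE 0.15), Mmp9 0.97 (SE 0.25), Mmp13 0.79 (SE 0.20), Mmp8 0.74 (SE 0.11) and Mmp14 0.61 (SE 0.09). Mmp19 fell by 1.29 (SE 0.22) and Timp1 fell by 1.02 (SE 0.14). The 5 arrays of one subset did not overlap the 5 of the other for any of these 8 genes. The share of all genes without overlap was not counted, so this count has nothing to be set against. Adam8 differed by 0.08 (interval -0.08 to 0.25, adjusted p = 0.42). Under rosiglitazone 7 of the 9 passed in the main fit, which did not pair the arrays, where 23.2% of genes did. The largest differences were those of Timp2 at 2.24 (SE 0.14), Mmp12 at 1.94 (SE 0.19) and Mmp19 at -1.32 (SE 0.29). Mmp13, Mmp14 and Mmp9 were also higher and Timp1 was lower, whereas Mmp8 gave -0.20 (interval -0.50 to 0.10) and Adam8 gave 0.06 (interval -0.15 to 0.28). Mmp9 (0.93, adjusted p = 0.031) no longer passed with the arrays paired by replicate number (adjusted p = 0.091) or without the Ly6C- replicate 3 (0.36, adjusted p = 0.47). Timp1 (-0.52, adjusted p = 0.031) did not pass without the Ly6C- replicate 1 (-0.26, adjusted p = 0.31), nor Mmp13 (0.80, adjusted p = 0.019) without the Ly6C- replicate 2 (0.67, adjusted p = 0.11). The neutrophil marker mean fell from 7.06 to 6.37 between the WT subsets, and 9 of its 15 genes were lower and 1 higher, while Mmp8 was higher in Ly6C- MFs. Between the same subsets 6 of 9 fibroblast markers were lower, with Sparc at -0.94 and Dcn at -0.58, and 6 of 8 endothelial markers were lower and 1 higher, with Cdh5 at -1.26 and a mean of 6.94 against 6.53. Their part in the results was not tested.

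**Figure D4:**
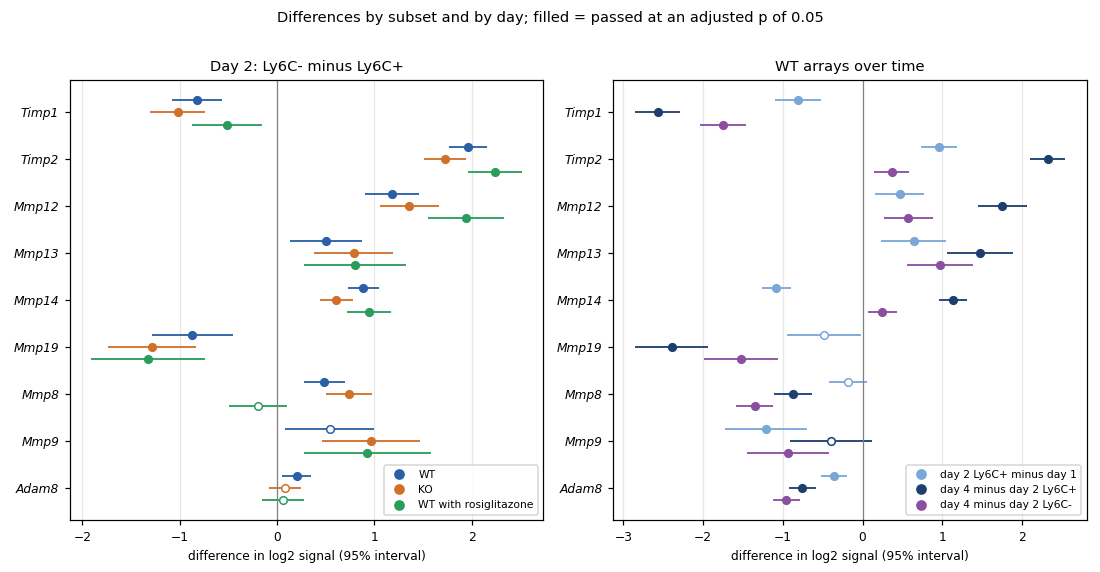
Points are fitted differences in log2 signal with 95% intervals, filled where the adjusted p was below 0.05. The left panel gives Ly6C- minus Ly6C+ at day 2 in WT (blue), KO (orange) and rosiglitazone (green), and the right panel gives day 2 against day 1 and day 4 against each day 2 subset in WT. Timp2 differed from 0 in all 6, by 1.96 in the WT subsets and 2.32 from day 2 to day 4 in arrays labelled Ly6C+.

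The next comparison followed arrays labelled Ly6C+ over time. From day 1 to day 2 in WT, 7 of the 9 genes passed, where 9.69% of all genes did. Mmp9 fell by 1.21 (SE 0.25, adjusted p = 0.0012), Mmp14 fell by 1.08 (SE 0.09, adjusted p = 1.5e-11), Timp1 fell by 0.81 (SE 0.14, adjusted p = 0.00012) and Adam8 fell by 0.36 (SE 0.08, adjusted p = 0.0036), with all 6 day 2 arrays below all 4 day 1 arrays for each. Timp2 rose by 0.96 (SE 0.11, adjusted p = 4.6e-08, 6 of 6 above). The share of all genes separated in this way between the days was not counted. Mmp13 (0.64, adjusted p = 0.037) and Mmp12 (0.46, adjusted p = 0.043) also rose, but neither passed with WT day 2 replicates 4 to 6 alone (0.18 and 0.19, adjusted p = 0.65 and 0.54) or without any of 8 of the 10 arrays. Mmp19 missed the threshold (-0.48, adjusted p = 0.2) but fell by 0.83 with replicates 4 to 6 alone (adjusted p = 0.00075). Adam8 did not pass when the fit held only these 10 arrays (adjusted p = 0.15). In KO, 4 of the 9 passed, where 8.64% of genes did: Timp2 (1.34), Mmp12 (0.58), Mmp14 (-0.57) and Mmp8 (-0.44). Without KO day 1 replicate 4, Mmp12 and Mmp8 missed the threshold (0.52 and -0.40, adjusted p = 0.07 and 0.066). KO Timp1 differed by -0.16 between the days (interval -0.46 to 0.14, adjusted p = 0.54).

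From day 2 to day 4, 8 of the 9 passed in WT arrays labelled Ly6C+, where 49.8% of all genes did, and 8 passed in KO, where 44.8% did. With dim genes left out, 7425 of 11799 genes passed in WT and 7185 in KO. In WT, Timp1 fell by 2.57 (SE 0.14, adjusted p = 1e-18) and Mmp19 fell by 2.39 (SE 0.23, adjusted p = 1.2e-11). Timp2 rose by 2.32 (SE 0.11, adjusted p = 5.8e-21), Mmp12 by 1.75 (SE 0.15), Mmp13 by 1.47 (SE 0.20) and Mmp14 by 1.13 (SE 0.09). Mmp8 fell by 0.87 and Adam8 fell by 0.76, and for these 8 genes all 4 day 4 arrays lay beyond all 6 day 2 arrays. How many of all genes were separated in this way was not counted. Over the same days the neutrophil marker mean went from 7.06 to 6.16, with 13 of 15 genes lower and 1 higher, and the endothelial mean from 6.94 to 6.45, with 6 of 8 lower. Of 10 muscle fibre markers 5 were higher. Their part in these results was not tested. In KO the same differences were -2.66 for Timp1, -2.24 for Mmp19, 2.03 for Timp2, 1.96 for Mmp12, 1.78 for Mmp13, 0.98 for Mmp14, -0.61 for Mmp8 and -0.68 for Adam8. Mmp9 missed the threshold in both, at -0.40 in WT (interval -0.91 to 0.11, adjusted p = 0.19) and -0.56 in KO (interval -1.09 to -0.02, adjusted p = 0.081). It passed in both when the fit held only the compared arrays (adjusted p = 0.0085 and 0.036) and with the replicate block (adjusted p = 0.0097 and 0.022).

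The day 4 arrays were also set against day 2 Ly6C- MFs. On Ly6c the WT ones lay between the day 2 subsets and overlapped neither, but on Adgre1 they lay above every WT day 2 array of either subset. On the same Ly6c probe set KO day 4 arrays (9.21 to 10.78) overlapped KO day 2 Ly6C- arrays (8.87 to 9.55). The monocyte marker mean of the WT day 4 arrays was close to that of WT Ly6C- MFs. All 7 genes of that list passed between them, 4 higher and 3 lower, with Plac8 at 2.31, Cx3cr1 at 2.07 and F10 at -1.63. All 9 genes passed in WT, where 29.3% of genes did, and in KO, where 24.8% did. The differences in WT were -1.75 for Timp1 (SE 0.14), -1.52 for Mmp19 (SE 0.23), -1.35 for Mmp8 (SE 0.12), -0.96 for Adam8 (SE 0.08), -0.94 for Mmp9 (SE 0.25), 0.97 for Mmp13 (SE 0.20), 0.57 for Mmp12 (SE 0.15), 0.36 for Timp2 (SE 0.11) and 0.25 for Mmp14 (SE 0.09). Timp1, Mmp19, Mmp8 and Adam8 were thus lower at day 4 than in either day 2 subset. Against replicates 1 to 3 alone Mmp9 and Mmp14 did not pass (-0.64 and 0.19, adjusted p = 0.1 and 0.11), and against replicates 4 to 6 alone Timp2 did not (0.36, adjusted p = 0.051). Mmp14 also missed it without WT day 4 replicate 2 or 4 (adjusted p = 0.09 and 0.085). In KO, Timp2 (0.30, adjusted p = 0.046) missed the threshold when any of 7 of the 9 arrays was left out. Fibroblast markers averaged 6.89 at day 4 against 6.41 in WT day 2 Ly6C- MFs, with 6 of 9 genes higher, and muscle fibre markers averaged 6.96 against 6.60, with 5 of 10 higher. Their part in these results was not tested.

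KO was compared with WT at each stage. At day 1 none of the 9 genes passed by limma, where 0.0351% of all genes did, and 2 had an unadjusted p below 0.05, Mmp8 (0.26) and Mmp14 (-0.20). In day 2 Ly6C+ MFs Mmp14 alone passed, where 1.88% of genes did. It was 0.31 higher in KO (SE 0.08, adjusted p = 0.042), with 3 of 5 KO arrays over the highest WT one. The difference was 0.46 against WT replicates 1 to 3 (adjusted p = 0.00032) and 0.15 against replicates 4 to 6 (adjusted p = 0.45), and leaving out any of 7 of the 11 arrays gave an adjusted p between 0.067 and 0.14. Timp1 was next at 0.42 (interval 0.15 to 0.69, adjusted p = 0.088). Against replicates 1 to 3 Timp1, Mmp13 and Mmp19 passed too, at 0.51, -0.62 and -0.59, but against replicates 4 to 6 they gave 0.32, 0.30 and 0.10 and missed it. Over all genes, 3008 of 19938 passed against replicates 1 to 3 and 322 against replicates 4 to 6. In the same contrast 4 of 8 endothelial markers were lower in KO, with Emcn at -0.80, Cdh5 at -0.63, Pecam1 at -0.36 and the list mean at 6.64 against 6.94, and 1 of 9 fibroblast markers, Dcn, was lower at -0.72. Their part in the result was not tested. In day 2 Ly6C- MFs no gene of the 9 passed, where 0.201% of genes did. Mmp9 was 0.93 higher there (interval 0.45 to 1.41, adjusted p = 0.083), with all 5 KO arrays above all 6 WT arrays, and it gave 1.23 against replicates 1 to 3 (adjusted p = 0.0036) and 0.63 against replicates 4 to 6 (adjusted p = 1). Mmp19 gave -0.67 (interval -1.10 to -0.23, adjusted p = 0.25), which was -1.34 against replicates 1 to 3 (adjusted p = 7e-09) and 0.01 against replicates 4 to 6 (adjusted p = 1). Without WT replicate 6 Mmp9 passed (1.05, adjusted p = 0.028), and without WT replicate 4 Mmp19 did (-0.88, adjusted p = 0.018). Over all genes, 2864 passed against replicates 1 to 3 and 23 against replicates 4 to 6. At day 4 none passed, where 0.0652% of genes did, and the 95% intervals of the 9 differences reached no further than 0.91 from 0. Unadjusted p was below 0.05 there for Mmp8 (0.27), Timp1 (0.32) and Adam8 (0.20), and in day 2 Ly6C- MFs for Mmp8, Mmp9, Mmp12 and Mmp19. The share of all genes at that unadjusted level is not given here for any KO contrast. Genes named at that level, also at day 1, cannot be set against it.

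The genotype difference itself was compared between subsets and days. None of the 9 passed between the day 2 subsets (0.01% of genes did), between day 2 and day 1 (0.01%), or between day 4 and day 2 (0.0301%), by limma's interaction terms. The smallest adjusted p was that of Mmp14 from day 1 to day 2, at 0.51 (SE 0.13, adjusted p = 0.19). With WT day 2 replicates 1 to 3 alone its difference was 0.66 (adjusted p = 0.0011). In that fit 1111 genes passed for this term, against 2 in the main fit and 3 with replicates 4 to 6 alone. Mmp14 did not pass with replicates 4 to 6 alone.

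Rosiglitazone was compared with no drug in WT day 2 MFs. In Ly6C+ MFs 4 of the 9 passed, where 11.1% of all genes did. Mmp12 was 1.17 lower, or 2.26-fold (-1.17, SE 0.17, adjusted p = 5.7e-05, 3 of 3 arrays below every untreated array), and it was -1.45 against replicates 1 to 3 and -0.90 against replicates 4 to 6 (adjusted p = 2.5e-10 and 0.0092). Mmp13 was lower too (-1.09, SE 0.22, adjusted p = 0.0014, 2 of 3 below), but gave -0.63 against replicates 4 to 6 (adjusted p = 0.12). Mmp14 was lower (-0.41, SE 0.10, adjusted p = 0.0043) and passed against either set, at -0.26 and -0.57 (adjusted p = 0.048 and 0.0038). Mmp8 was higher (0.53, SE 0.13, adjusted p = 0.0055), at 0.73 and 0.33 against the sets (adjusted p = 8.6e-06 and 0.22). Mmp14 did not pass without rosiglitazone replicate 1 (-0.31, adjusted p = 0.09), nor Mmp8 without replicate 2 (0.43, adjusted p = 0.057). When the fit held only the 9 arrays compared, none passed (adjusted p = 0.12, 0.14, 0.21 and 0.22 for Mmp12, Mmp13, Mmp14 and Mmp8), and 0 of all 19938 genes did. In the same MFs 4 of 8 endothelial markers were lower with the drug. They averaged 6.59 with the drug and 6.94 without, where single arrays ran from 6.50 to 7.23, and their part in the result was not tested.

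In Ly6C- MFs none of the 9 passed under rosiglitazone, where 0.0351% of genes did. For 4 the unadjusted p was below 0.05. The share of all genes at that unadjusted level is not given here, so this count cannot be set against it. Mmp13 gave -0.79 (interval -1.24 to -0.34, adjusted p = 0.21) and Mmp14 gave -0.35 (interval -0.55 to -0.16, adjusted p = 0.2), with all 3 treated arrays below all 6 untreated for both. Mmp12 gave -0.41 (interval -0.75 to -0.07) and Mmp19 gave -0.54 (interval -1.05 to -0.04). Against replicates 1 to 3 these 4 genes passed, with Mmp19 at -1.22 (adjusted p = 6.6e-07), whereas against replicates 4 to 6 Mmp19 was 0.13 (adjusted p = 1). Over all genes, 2556 of 19938 passed against replicates 1 to 3 and 3 against replicates 4 to 6. Between the subsets the rosiglitazone differences did not pass for any of the 9 (0.015% of genes did). The nearest were Mmp8, at -0.68 (SE 0.18, adjusted p = 0.22), and Mmp12, at 0.76 (SE 0.24, adjusted p = 0.33). Without WT Ly6C+ replicate 4, the array lowest for Mmp12 in its group, these were -0.79 and 0.96 (adjusted p = 0.0084 and 0.002). The share of all genes that passed without that array is not given here. Replicates 1 to 3 alone gave -0.87 and 1.05 (adjusted p = 0.0024 and 0.0015), where 532 of 19938 genes passed. With replicates 4 to 6 alone 0 genes passed, so neither of these did.

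**Figure D5:**
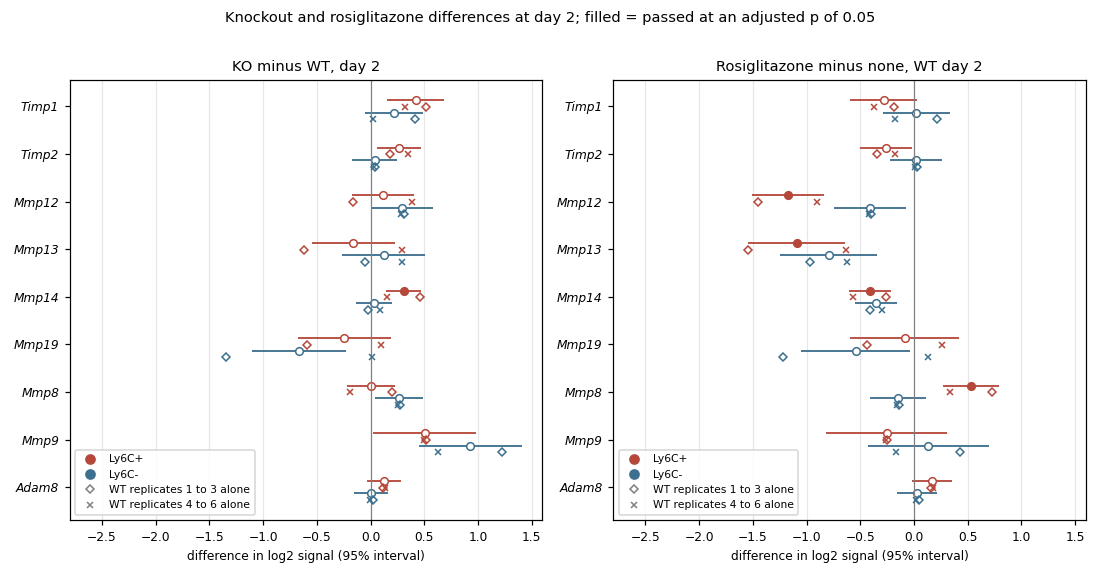
Circles are fitted differences in log2 signal with 95% intervals for KO minus WT (left) and rosiglitazone minus none (right) at day 2, in Ly6C+ (red) and Ly6C- (blue) MFs, filled where the adjusted p was below 0.05. Diamonds and crosses give the difference against WT replicates 1 to 3 and 4 to 6 alone. The sets stood farthest apart for Mmp19 in Ly6C- MFs, at -1.34 and 0.01 in the left panel.

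The rest of the family was read as lists of named genes. Of 16 other MMPs, 1 was higher and 5 lower in WT Ly6C- MFs at day 2, where 22.2% of all genes were higher and 23% lower. The higher one was Mmp27, the neighbour of Mmp8, at 2.36 (SE 0.12, adjusted p = 5.4e-19). Mmp27 was also 2.24 higher in KO and 2.20 higher under rosiglitazone. The largest falls were those of Mmp25, a membrane-bound MMP of leukocytes (-0.50, SE 0.10), and Mmp20 (-0.27, SE 0.07). Of 6 other inhibitors 3 were lower, with Timp3 at -0.56 (SE 0.11), Timp4 at -0.27 (SE 0.08) and A2m, a broad protease trap of plasma, at -0.25 (SE 0.07), and all 3 averaged below the median of all gene values in both subsets. Of 20 other ADAM and ADAMTS genes 4 were higher and 8 lower. The largest changes were Adam19 at 0.40 (SE 0.12), Adam15 at 0.34 (SE 0.09) and Adamts1 at -0.28 (SE 0.11). Of 17 activators and partners 9 were higher and 5 lower. Lcn2, whose product binds MMP9, fell by 2.46 (SE 0.20). Ctsk, a collagen-cutting cathepsin, rose by 1.51 (SE 0.13), and Cd63, a tetraspanin that binds TIMP1, rose by 1.36 (SE 0.15). With array medians centred, higher calls were 67.2% of all calls in place of 49.1%.

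From day 2 to day 4 in WT arrays labelled Ly6C+, 3 of 16 other MMPs rose and 6 fell, where 23.8% of all genes rose and 26% fell. Mmp27 rose by 2.55 (SE 0.14), Mmp2, a gelatinase that MMP14 and TIMP2 help to activate, rose by 0.63 (SE 0.08), and Mmp25 by 0.33 (SE 0.11). Of 20 other ADAM and ADAMTS genes 6 rose and 2 fell, led by Adamts10 (0.69, SE 0.09) and Adam22 (0.62, SE 0.07). Of 17 activators and partners 8 rose and 5 fell, with Lcn2 at -2.82 (SE 0.23), Cd44, a hyaluronan receptor that docks MMP9, at -1.52 (SE 0.10) and Thbs1 at -1.50 (SE 0.08). Of 6 other inhibitors 2 fell, with Timp3 at -0.42 (SE 0.12). Centring the arrays moved the share of higher calls among all calls from 47.8% to 60.9%. Between KO and WT, Adam19, a membrane protease of the ADAM family, was lower in day 2 Ly6C+ (-0.73, SE 0.13, adjusted p = 0.0013) and Ly6C- MFs (-0.91, SE 0.13, adjusted p = 2.6e-05). Plau, the urokinase that activates plasminogen, was 0.59 higher in KO day 2 Ly6C+ MFs (SE 0.14, adjusted p = 0.02) and lower under rosiglitazone in those MFs (-0.53, SE 0.16, adjusted p = 0.027). These 2 comparisons share the untreated WT arrays. With only the compared arrays in the fit, 0 of 19938 genes passed for rosiglitazone in Ly6C+ MFs, so Plau did not pass there. For KO against WT in Ly6C+ MFs, 3008 genes passed against replicates 1 to 3 and 322 against replicates 4 to 6. In Ly6C- MFs these counts were 2864 and 23. Adam19 and Plau were not split by replicate set here.

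Genes with the most similar pattern were ranked by Pearson's r over the 10 group means. Predicted genes without a given name and the other members of the 9 were left out of this ranking. They were Gusb (0.997), Hpgds (0.997) and Gas6 (0.997) for Timp2, and Card19 (0.994), Eif5 (0.993) and Phlda1 (0.991) for Timp1. For Mmp12 they were Ube2t (0.994), Nxt2 (0.984) and Rsph9 (0.982), and for Mmp13 they were Klhl24 (0.986), Epm2a (0.977) and Sdf2 (0.968). For Mmp19 they were Cdk17 (0.991), Diaph1 (0.991) and Itpkb (0.991), and for Adam8 Rai14 (0.991), Slc7a8 (0.990) and Cxcl5 (0.985). Values were lower for Mmp8, led by Ufm1 (0.949), Mmp14, led by Rrm2b (0.947), and Mmp9, led by Dusp4 (0.921). Among the 9 genes, Mmp19 correlated with Timp1 at 0.94 and with Timp2 at -0.93, and Mmp8 with Adam8 at 0.91. These values describe 10 points that share the subset and day differences. Pearson's r compares the shape of a pattern and not its size. Group means spanned 0.48 for Ube2t and 0.35 for Rrm2b, against 3.25 for Mmp12, 1.70 for Mmp14 and a median of 0.45 over all genes. Other similar genes spanned more, such as Hpgds (3.63), Gas6 (3.86) and Phlda1 (4.08).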

How the data were processed

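RNA of 44 samples was read on one-colour Affymetrix arrays. The deposited log2 values of 35556 probe sets were made by the authors with RMA, whose version is not given in the sources used here. Values ran from 1.46 to 13.6, array medians from 6.64 to 6.77, and no value was missing. They were used as deposited. Of 23410 probe sets with a symbol, the 21789 with 1 symbol were kept, and a gene with several took the probe set of highest mean, which gave 19938 genes. One mean per group was fitted with limma 3.58.1 in R 4.3.3 over all 44 arrays (34 residual and 6.46 prior degrees of freedom), with 15 contrasts of groups and 4 interactions, two-sided, and Benjamini-Hochberg adjustment over 19938 genes at 0.05. The fit was tested on simulated data. Differences are the first group minus the second in log2 signal. The number of arrays limits the precision.

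The 9 genes and the lists were chosen with earlier results of these data known. The named genes were the 9 and the up to 3 largest changes that passed in a list of the family in the contrasts described. The 3 most similar patterns were named too, with predicted genes and the other members left out. Some list genes without a probe set of their own were not analysed here. Same-number replicates of the rosiglitazone subsets deviated together (r 0.13 to 0.44 over 3 pairs), so those numbers were taken to pair the arrays. The main fit did not use this pairing, which entered only the replicate block. The counts, SEs and adjusted p given first for that contrast are therefore unpaired. In the other contrasts not every pair correlated above 0.1. Alternatives were array centring, leaving out dim genes, the mean of probe sets, the compared arrays alone, an intensity trend with a robust prior, each set of 3 WT day 2 replicates, the replicate block, and leaving out each array. Markers of other cells were averaged per array. The labels give no batch or scan date.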

Additional observations from a re-analysis of the deposited data

Results flagged for a closer look

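Of 72 sets of 4 to 6 values (9 genes in 8 groups), 2 held an array that lay apart from the rest by Dixon's criterion, where chance gives about 1 in 20. Timp1 read 9.37 in KO day 2 Ly6C- replicate 3, below the other 4 arrays of 9.73 to 9.80. Timp2 read 9.33 in KO day 2 Ly6C+ replicate 5, below the other 4 of 9.94 to 10.13. Without that array Timp2 was 0.41 higher in KO than in WT day 2 Ly6C+ MFs (limma, adjusted p = 0.0082), against 0.27 with it (adjusted p = 0.17).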

How the results depend on the processing

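Of 171 tests on the 9 genes (19 contrasts), 73 passed, and none of these changed direction under any alternative. Leaving out dim genes, averaging probe sets and the intensity trend lost 0 of the 73, centring lost 3, the compared arrays alone lost 12, and the replicate block lost 8. Of the 37 that rest on WT day 2, replicates 1 to 3 alone lost 4 and replicates 4 to 6 alone lost 8. Leaving out 1 array lost a call in 57 of 694 refits. Counts of the 9 genes that passed moved by over 1.5 times as follows. From day 1 to day 2 in WT the count of 7 became 4 with the compared arrays alone and 4 with the replicate block, and in KO the count of 4 ran from 2 to 4 with 1 array left out, the 2 without KO day 1 replicate 4. Between KO and WT in day 2 Ly6C+ MFs the count of 1 became 0 with the compared arrays alone, 4 with replicates 1 to 3 and 0 with replicates 4 to 6, and ran from 0 to 2 with 1 array left out. In day 2 Ly6C- MFs the count of 0 became 2 with replicates 1 to 3 and 1 with the block, and ran from 0 to 1 with 1 array left out. For rosiglitazone in Ly6C+ MFs the count of 4 became 0 with the compared arrays alone and 2 with replicates 4 to 6, and ran from 2 to 4 with 1 array left out. In Ly6C- MFs the count of 0 became 4 with replicates 1 to 3 and 2 with the block, and ran from 0 to 1. The interaction counts of 0 became 3 for rosiglitazone by subset (0 to 2 with 1 array left out), 3 for genotype by day from day 1 to day 2, and 1 from day 2 to day 4, all with replicates 1 to 3. The cause of these moves was not tested. In the contrasts whose numbers were not taken to pair the arrays, the same-number r ran from -0.37 to 0.60. Between the WT day 2 subsets it ran from 0.01 to 0.60 over 6 pairs, so pairing there is not known.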
